A study of Mus musculus with 15 samples.

Results

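Fibroblasts and pericytes are the stromal cells of the pancreas, and 9 genes commonly used to mark them were followed in islets of NOD mice, a strain in which immune cells enter the islets before diabetes. The 9 genes (Pdgfra, Pdgfrb, Dcn, Lum, Acta2, Cspg4, Rgs5, Pdpn and Fap) were taken by name from the 48709 genes of the deposited table, with collagens left out, and all 9 had enough counts to be tested, along with 16554 genes in all. Islets came from 15 female mice of the NOD genotype, 3 at each of 5 ages: 4, 6, 8, 10 and 12 weeks. The labels name no transgene and no treatment, and each mouse was sampled at a single age. The islets were freed with collagenase, separated on a density gradient and picked by hand, so a sample holds the endocrine cells with whatever stroma, vessels and immune cells stayed attached. All mice were NOD, so changes that come with age in any mouse and changes that come with disease cannot be told apart. Counts summed to between 25407492 and 41616275 per mouse, with a median of 28004882. Levels are given as CPM (counts divided by the library size after TMM scaling), and 3 counts corresponded to 0.0754 to 0.128 CPM.

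Fibroblasts build and remodel the matrix around islets and ducts. They are usually recognised by the receptor Pdgfra and by secreted proteoglycans such as decorin (Dcn) and lumican (Lum). Pericytes sit on the capillary wall, depend on PDGF-B from endothelial cells acting on the receptor Pdgfrb, and are known for Rgs5 and for the proteoglycan NG2 (Cspg4). Smooth muscle actin (Acta2) is made by vascular smooth muscle, some pericytes and activated fibroblasts. Podoplanin (Pdpn) and fibroblast activation protein (Fap) are surface proteins of fibroblasts in inflamed or lymphoid tissue, and podoplanin is also found on lymphatic endothelium and mesothelium.

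Between 4 and 12 weeks, 7 of the 9 genes rose (Pdgfra, Dcn, Pdpn, Lum, Fap, Acta2 and Pdgfrb, in that order of fold change), while the pericyte genes Rgs5 and Cspg4 did not pass the test. The size of the rise ran from 1.74-fold for Pdgfrb to 10.9-fold for Pdgfra. The 7 calls rest on the edgeR quasi-likelihood test at a Benjamini-Hochberg adjusted p under 0.05, and in the same comparison 26.3% of all genes tested were called higher. The median log2 fold change was 1.91 over the 9 genes and -0.05 over all genes tested. The same 7 genes were called in the joint test for any change over the 5 ages, which called 56% of all genes. In bulk tissue, more cells of a type and more RNA per cell cannot be told apart.

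**Figure D1:**
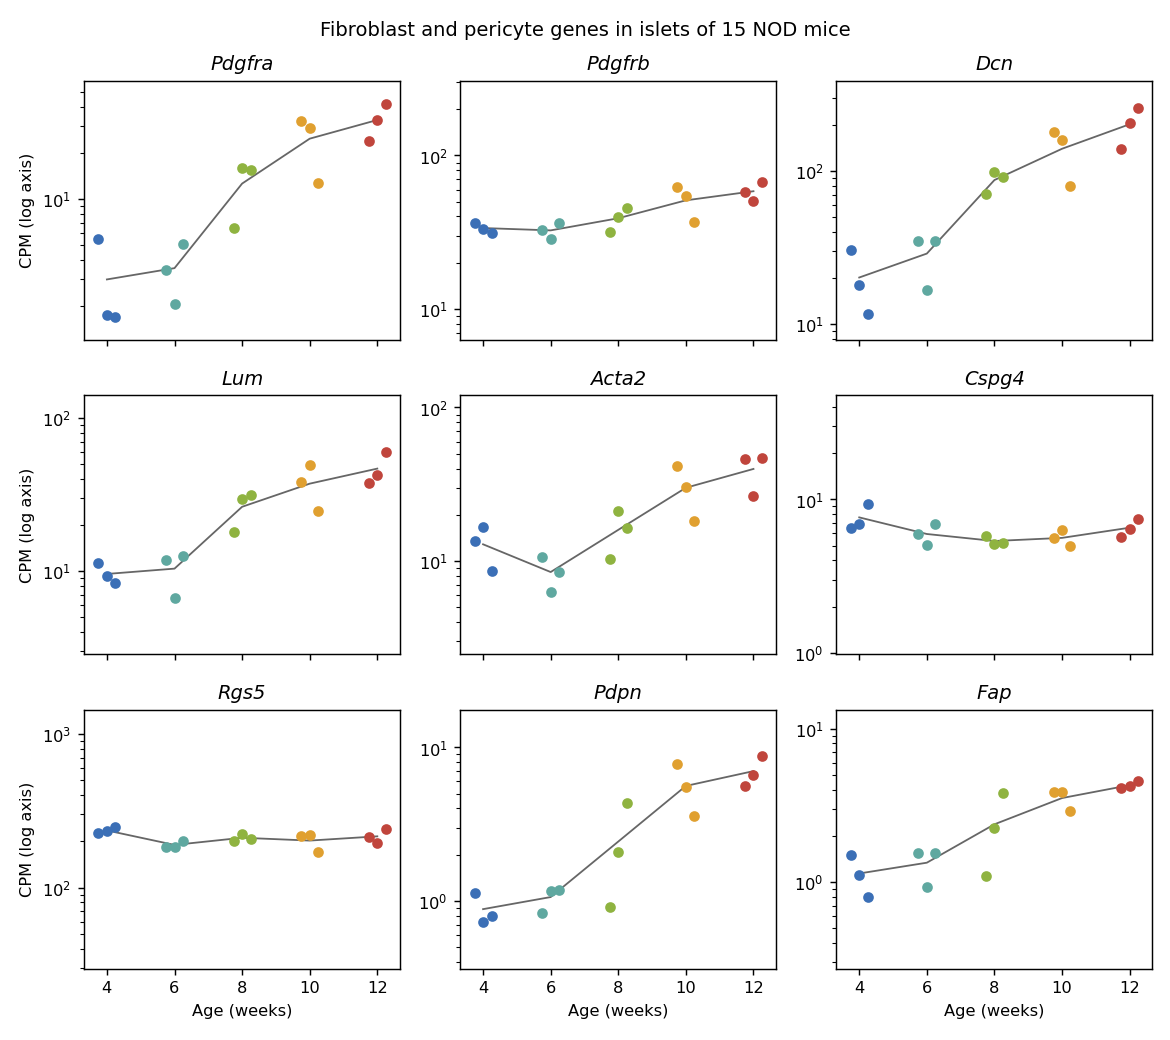
Level of each gene in CPM (log axis, every panel spanning the same fold range) against age in weeks, with 1 point per mouse and a line through the mean of the 3 mice at each age. The 4- and 12-week mice overlapped for Rgs5 and Cspg4, and the other 7 genes were higher in every mouse of 12 weeks than in any mouse of 4 weeks.

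Some libraries stood apart, and the results are given with that in view. The 8-week mouse of replicate 1 and the 10-week mouse of replicate 3 had the lowest level of their age for Pdgfra, Pdgfrb, Dcn, Lum, Acta2, Pdpn and Fap. Both were also the lowest of their age for the summed leukocyte markers, at 73.7 CPM against 286 and 406 CPM at 8 weeks, and at 471 CPM against 1105 and 812 CPM at 10 weeks. The 6-week mouse of replicate 2 was the lowest of its age for every member but Pdpn, but not for the leukocyte markers. Intestinal transcripts (Fabp2, Apoa4, Cdx1, Cdx2, Lct, Sis and Muc2) summed to 33.9 CPM in the 6-week mouse of replicate 2 and to 231.6 CPM in the 12-week mouse of replicate 1, and to at most 0.38 CPM in every other mouse. Without those 2 libraries, the same number of genes, 7 of 9, was called higher at 12 than at 4 weeks, against 24% of all genes.

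Pdgfra, the receptor for PDGF-A and PDGF-C that marks most fibroblasts, was low in young islets. Its level was 5.5, 1.75 and 1.7 CPM in the 3 mice of 4 weeks, 3.45, 2.08 and 5.08 CPM at 6 weeks, and 6.46, 15.9 and 15.4 CPM at 8 weeks. It was 32.4, 29.0 and 12.8 CPM at 10 weeks and 24, 32.7 and 41.4 CPM at 12 weeks. All 3 mice of 8 weeks lay above all 3 of 6 weeks, and every mouse of 12 weeks lay above every mouse of 4 weeks. The log2 fold change from 4 to 12 weeks was 3.45 (SE 0.55, edgeR adjusted p = 0.00047), and 4.24 without the 4-week mouse of replicate 1. The gene lies on chr5:75152292-75198215 (mm10, plus strand). Of the 3 other genes whose regions overlap it, Gm42802 and Gm42803 (opposite strand) and Mir7025 (same strand) together had 1 count over all 15 mice, against 7058 for Pdgfra.

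Decorin and lumican are small leucine-rich proteoglycans that coat collagen fibrils, and their genes are neighbours on chromosome 10 (Dcn at chr10:97479500-97518162, Lum at chr10:97565501-97572703, mm10, both on the plus strand, 47.3 kb apart). Dcn stood at 30.8, 18.1 and 11.8 CPM at 4 weeks, 35.1, 16.7 and 35.2 CPM at 6 weeks, 71.0, 99.3 and 92.0 CPM at 8 weeks, 181, 159 and 79.7 CPM at 10 weeks and 140.3, 206 and 259.7 CPM at 12 weeks. The 6- and 8-week groups did not overlap, and the lowest 12-week mouse was above the highest 4-week mouse. The rise from 4 to 12 weeks was 9.99-fold (log2 fold change 3.32, SE 0.43, edgeR adjusted p = 0.000225). Lum went from 11.2, 9.23 and 8.32 CPM at 4 weeks and 11.8, 6.68 and 12.7 CPM at 6 weeks to 18.1, 29.6 and 31.2 CPM at 8 weeks, 37.9, 48.9 and 24.9 CPM at 10 weeks and 37.8, 42.2 and 60.1 CPM at 12 weeks. Its rise was 4.86-fold (log2 fold change 2.28, SE 0.31, edgeR adjusted p = 0.000263), again without overlap.

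Ratios of reads within a library, which no scaling between mice can alter, are given here and below as a description, since they were chosen after the values had been seen. Reads of Dcn per read of Lum were 2.74, 1.96 and 1.41 at 4 weeks and 3.71, 4.89 and 4.32 at 12 weeks. The ranges did not overlap (log2 difference 1.12, SE 0.30), and the exact permutation test, two-sided, gave p = 0.1, the smallest that 3 against 3 mice allow. From 6 to 8 weeks the same ratio differed by 0.30 (log2, SE 0.14, exact permutation p = 0.2), with overlapping groups.

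Podoplanin and Fap had the fewest counts of the genes that rose. Pdpn counts ran from 17 to 30 per mouse at 4 weeks and from 174 to 278 at 12 weeks. In CPM these were 1.12, 0.727 and 0.796 at 4 weeks, 0.832, 1.16 and 1.18 at 6 weeks, 0.912, 2.07 and 4.32 at 8 weeks, 7.74, 5.5 and 3.59 at 10 weeks, and 5.64, 6.65 and 8.74 at 12 weeks. The 8-week mice spread from the level of the younger mice to that of the 10-week mice. Between 4 and 12 weeks the log2 fold change was 2.98 (SE 0.48, edgeR adjusted p = 0.000474). Fap, a membrane protease, stood at 1.5, 1.11 and 0.796 CPM at 4 weeks, 1.55, 0.921 and 1.54 CPM at 6 weeks, 1.09, 2.25 and 3.79 CPM at 8 weeks, 3.84, 3.84 and 2.89 CPM at 10 weeks and 4.08, 4.21 and 4.53 CPM at 12 weeks. The 12-week mice were close together and above all 10-week mice, although the step of 0.28 (log2) between those ages did not pass the test. Groups of those ages did not overlap for 1626 of the 16554 genes tested, counting either direction. The log2 fold change of Fap from 4 to 12 weeks was 1.91 (SE 0.38, edgeR adjusted p = 0.00147).

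Pdgfrb, the receptor for PDGF-B that both pericytes and fibroblasts carry, rose least among the 7. It stood at 36.5, 33.0 and 31.4 CPM at 4 weeks, 32.4, 28.5 and 36.5 CPM at 6 weeks, 31.7, 39.6 and 45.6 CPM at 8 weeks, 62.1, 54.3 and 36.6 CPM at 10 weeks and 57.5, 50.8 and 67.1 CPM at 12 weeks. The 12-week mice lay above the 4-week mice without overlap (log2 fold change 0.80, SE 0.18, edgeR adjusted p = 0.00336), and neighbouring ages overlapped at every step. There were 0.151, 0.0532 and 0.0541 reads of Pdgfra per read of Pdgfrb at 4 weeks and 0.418, 0.645 and 0.617 at 12 weeks. That ratio differed by 2.86 (log2, SE 0.54) between 4 and 12 weeks and by 1.56 (SE 0.40) between 6 and 8 weeks, without overlap at either step (exact permutation p = 0.1 for each, the smallest possible). Pdgfra had the highest and Pdgfrb the lowest fold change of the 7 when this ratio was chosen, so its direction adds nothing to theirs.

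Rgs5 and Cspg4 are the members tied most closely to pericytes. Rgs5, a regulator of G protein signalling, was high in every mouse. It stood at 226, 232 and 249 CPM at 4 weeks, 185, 183 and 202 CPM at 6 weeks, 201, 224 and 208 CPM at 8 weeks, 217, 219 and 172 CPM at 10 weeks, and 213, 195 and 239.8 CPM at 12 weeks. The 6-week mice lay below the 4-week mice without overlap, a log2 difference of -0.31 that did not pass the test (edgeR adjusted p = 0.304). Groups of those ages did not overlap for 2917 of the 16554 genes tested, counting either direction. All later groups of Rgs5 overlapped with their neighbours. From 4 to 12 weeks the log2 difference was -0.13, with a 95% interval from -0.34 to 0.09 (edgeR adjusted p = 0.294). With library totals in place of TMM the sign of that difference turned, to 0.12.

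Cspg4, the NG2 proteoglycan, ranged from 4.95 to 9.41 CPM over all mice. It measured 6.55, 6.97 and 9.41 CPM at 4 weeks, 5.94, 5.02 and 6.9 CPM at 6 weeks, 5.76, 5.1 and 5.21 CPM at 8 weeks, 5.57, 6.33 and 4.95 CPM at 10 weeks and 5.67, 6.45 and 7.51 CPM at 12 weeks. The 4- and 12-week groups overlapped (log2 difference -0.22, 95% interval from -0.60 to 0.15, edgeR adjusted p = 0.29), and with library totals the difference was 0.03. The intervals of both genes end below a 1.5-fold rise, and neither p-value shows that the level was equal. Within the libraries, reads of Dcn per read of Rgs5 went from 0.136, 0.078 and 0.0472 at 4 weeks to 0.66, 1.06 and 1.08 at 12 weeks, a log2 difference of 3.52 (SE 0.50) without overlap (exact permutation p = 0.1, the smallest possible). From 6 to 8 weeks that ratio differed by 1.5 (log2, SE 0.35, exact permutation p = 0.1), also without overlap.

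Acta2, the smooth muscle actin of contractile vessels and of activated fibroblasts, fell between these patterns. Its level was 13.4, 16.5 and 8.54 CPM at 4 weeks, 10.7, 6.29 and 8.4 CPM at 6 weeks, 10.3, 21.2 and 16.2 CPM at 8 weeks, 41.4, 30.1 and 18.3 CPM at 10 weeks, and 45.8, 26.6 and 46.7 CPM at 12 weeks. It was higher at 12 than at 4 weeks in every mouse, 3.11-fold (log2 fold change 1.63, SE 0.36, edgeR adjusted p = 0.00253), with wide spread among mice of 10 and 12 weeks. Reads of Acta2 per read of Rgs5 were 0.0592, 0.071 and 0.0343 at 4 weeks and 0.215, 0.136 and 0.195 at 12 weeks, again without overlap (log2 difference 1.77, SE 0.37, exact permutation p = 0.1, the smallest possible). From 6 to 8 weeks this ratio differed by 0.73 (log2, SE 0.34, exact permutation p = 0.2), with overlapping groups.

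Acta2 is a textbook target of serum response factor, which binds CArG boxes, so its promoter is shown here. The search took the 250 bases before each RefSeq start and used the letters CCNNNNNNGG with A or T in at least 5 of the 6 middle bases, a pattern that reads the same way on both strands. Below are the 150 bases before the start of Acta2 (RefSeq, GRCm38.p6, chr19:34255374-34255523, minus strand, 5′ to 3′), with the boxes in capitals.
Acta2: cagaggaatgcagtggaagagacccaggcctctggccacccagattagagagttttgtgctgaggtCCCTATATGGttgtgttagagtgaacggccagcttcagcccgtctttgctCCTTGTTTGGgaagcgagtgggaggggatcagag
The boxes begin 84 and 34 bases before the start and do not overlap. Such a box was found in 8.59% of the 32851 promoters searched, and 2 or more in 0.67%. Entries matched 5 of the 9 genes (Pdgfra, Acta2, Cspg4, Rgs5 and Pdpn), and Acta2 alone among those 5 held a box. Among the smooth muscle genes described below, 7 of 10 had an entry and Myl9, the regulatory light chain of smooth muscle myosin, alone held boxes, at 161 and 99 bases before its start. A match describes letters and was not tested as a binding site.

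The changes were spread over several age steps, and single steps were weaker than the whole. From 4 to 6 weeks none of the 9 genes was called (edgeR adjusted p from 0.304 to 0.989), against 0.0906% of all genes, and none met a threshold after that of the study (at least 1.5-fold and p under 0.05, taken here as the unadjusted p), which 2.9% of genes met. Rgs5 was the single member with an unadjusted p under 0.05 at this step, and DESeq2 and the edgeR exact test called none. Acta2 and Pdgfra had log2 differences of -0.60 and 0.22, with 95% intervals from -1.39 to 0.18 and from -0.95 to 1.40.

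From 6 to 8 weeks 6 of the 9 genes met the study's threshold as higher (Pdgfra, Dcn, Lum, Acta2, Pdpn and Fap), against 8.4% of all genes. Their log2 fold changes were 1.85 (SE 0.53) for Pdgfra, 1.60 (SE 0.40) for Dcn, 1.35 (SE 0.31) for Lum, 1.2 (SE 0.46) for Pdpn, 0.92 (SE 0.36) for Acta2 and 0.84 (SE 0.38) for Fap. After adjustment over all genes none was called by the edgeR quasi-likelihood test (lowest adjusted p = 0.159), which called 0% of genes at this step although 2983 had an unadjusted p under 0.05. DESeq2 and the edgeR exact test each called 3 of the 9, namely Pdgfra, Dcn and Lum, against 3.28% and 1.85% of all genes. Groups of 6 and 8 weeks did not overlap for those 3 of the 9 genes, and for 3191 of the 16554 genes tested, counting either direction. Without the 8-week mouse of replicate 3, the log2 fold change of Pdpn was 0.49. Without the 8-week mouse of replicate 1, the quasi-likelihood test called 4, Pdpn being the fourth, against 4.72% of all genes. With the 6-week mouse of replicate 1, 2 or 3 left out in turn, 4 of the 9 met the study's threshold each time. In those fits 920, 794 and 1669 genes of all tested met it as higher.

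From 8 to 10 weeks, Acta2 (log2 fold change 0.91, SE 0.35) and Pdpn (1.2, SE 0.44) met the study's threshold, 2 of 9 against 11.1% of all genes higher. None of the 9 was called after adjustment (edgeR adjusted p of 0.0844 for Acta2 and 0.0704 for Pdpn), while 16.8% of all genes were. DESeq2 called both, 2 of 9 against 24.7% of all genes, and without the 10-week mouse of replicate 3 the quasi-likelihood test called 3 of 9 (Pdgfrb, Acta2 and Pdpn) against 33.3%, so both counts were near the background. Without the 8-week mouse of replicate 3 the value of Pdpn was 1.91 (edgeR adjusted p = 0.0176), with 20.2% of all genes called. From 10 to 12 weeks all 9 differences were above 0, from 0.09 to 0.53 on the log2 scale, but none was called (lowest edgeR adjusted p = 0.772) or met the study's threshold, against 0% and 2.17% of all genes. No member had an unadjusted p under 0.05 at this last step and DESeq2 and the edgeR exact test called none, while 1245 genes of all tested had one. Consecutive steps share a group of mice, so their values are not independent.

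**Figure D2:**
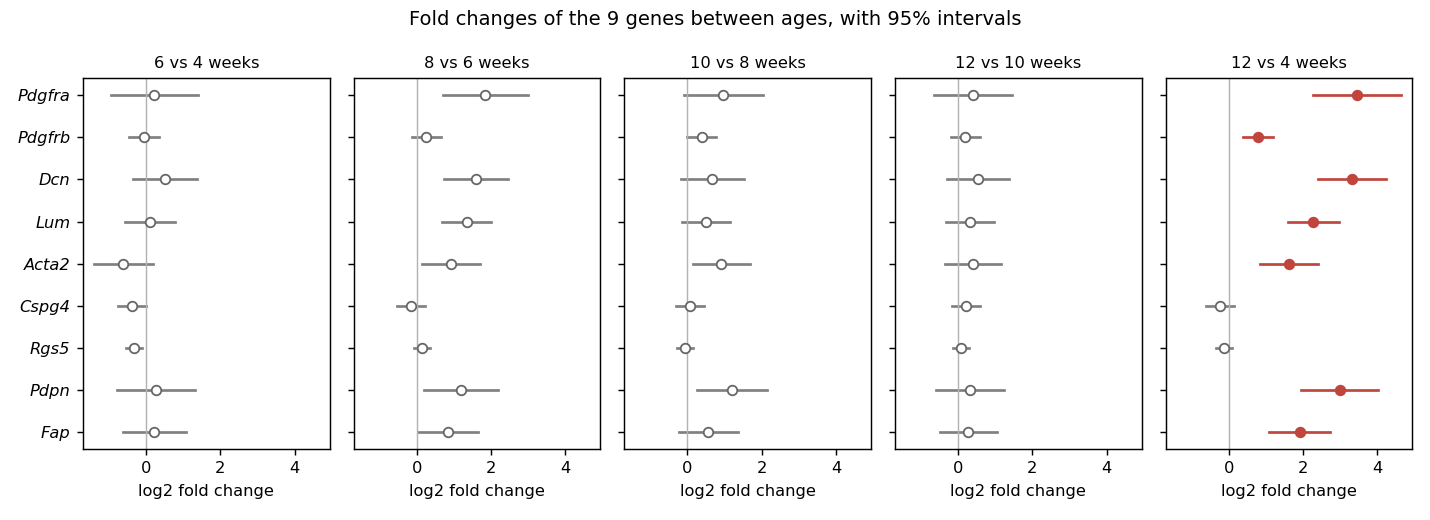
Log2 fold change of each gene between ages (older minus younger) from the edgeR fit, with 95% intervals as bars, 1 panel per comparison. Filled points passed an adjusted p under 0.05, which happened for 7 genes at 12 against 4 weeks and for none at the single steps.

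At 12 against 4 weeks, 7 of the 9 genes were higher without overlap between the groups, against 30.3% of all genes tested. The scaling between libraries bears on the background but not on these calls: library totals in place of TMM raised the median of all genes by 0.25 (log2), and of the genes called at 12 against 4 weeks 78.3% were higher, against 49.2% with TMM. At 10 against 8 weeks the corresponding shares were 78.9% and 50.1%. Rgs5 and Cspg4 lay below the median of all genes at 12 against 4 weeks under both scalings.

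Levels were compared between genes per transcript length, using the deposited TPM (read counts divided by transcript length and scaled to the same total in every library). At 4 weeks Rgs5 stood far above the rest at 99.7 ± 4.76 TPM (SD, n = 3), followed by Dcn at 18.8 ± 9.71, Acta2 at 13.8 ± 4.18 and Pdgfrb at 11.8 ± 1.33 TPM, whose ranges overlapped from each gene to the next. Lum at 8.92 ± 1.7 TPM lay below Pdgfrb without overlap but overlapped Acta2 and Dcn, Cspg4 at 1.82 ± 0.352 TPM lay below all of these without overlap, and Pdpn (0.939 ± 0.263), Pdgfra (0.583 ± 0.448) and Fap (0.387 ± 0.132 TPM) formed an overlapping tail. The order of Dcn and Rgs5 then changed. They overlapped at 8 weeks, when Rgs5 measured 102 ± 12.5 and Dcn 92.7 ± 21.8 TPM, and at 10 weeks, when Dcn had the higher mean. At 12 weeks Dcn stood first at 246.7 ± 87.3 TPM, above Rgs5 at 119.9 ± 19.8 TPM without overlap. Lum (57.2 ± 18.4) and Acta2 (56.4 ± 17.8) overlapped, ahead of Pdgfrb (27.0 ± 5.42 TPM). Pdpn (9.80 ± 2.85) and Pdgfra (8.30 ± 2.71) overlapped, and Cspg4 (2.06 ± 0.421) and Fap (1.9 ± 0.224 TPM) closed the order. RPKM in place of TPM gave the same order of the 9 genes at 12 weeks. TPM is not scaled by TMM, and the mean of Rgs5 was higher at 12 than at 4 weeks in TPM and lower in CPM. The cause of that difference was not tested.

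**Figure D3:**
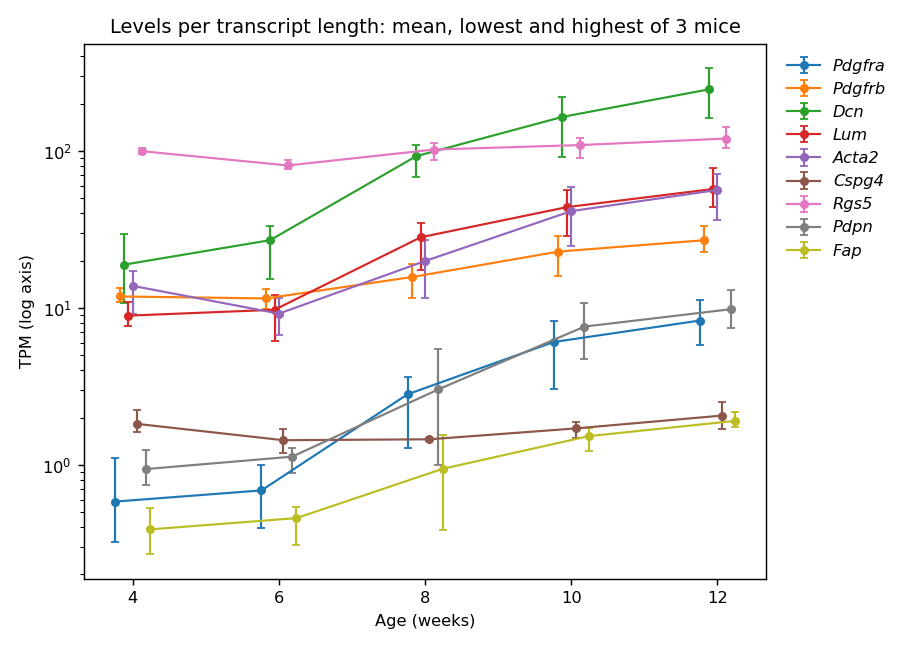
Level per transcript length in TPM (log axis) against age in weeks, with the mean of 3 mice as a point and the lowest and highest mouse as bars. Dcn crossed Rgs5 between 8 and 10 weeks, and Pdgfra and Pdpn crossed Cspg4 between 6 and 8 weeks.

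Within an age, some of the 9 genes were high in the same mice. How often pairs among all genes tested would pass was not computed, so the counts below are a description. Of the 36 pairs among the 9 genes, 13 correlated after each age mean was subtracted (Pearson r of log2 CPM over 15 mice, exact permutation within ages, Benjamini-Hochberg adjusted p under 0.05 over the 36). All 13 lay among the 7 genes that rose, which form 21 pairs, and none of the 15 pairs with Rgs5 or Cspg4 passed. The pairs among the 7 that did not pass all included Acta2 or Pdpn, such as Pdpn with Dcn, Lum or Fap. The tightest pair was Pdgfra with Dcn (r = 0.90, Spearman rho = 0.88, exact permutation p = 0.000129 for each, the smallest possible, adjusted p = 0.00463), and r was 0.90 without the 2 mice farthest from the median of Pdgfra. Lum with Fap had r = 0.78 (rho = 0.82, exact permutation p = 0.000257 and 0.000386, adjusted p = 0.00463 and 0.00694, r = 0.77 without 2 mice). Pdgfra with Lum had r = 0.86 (rho = 0.75, exact permutation p = 0.00129 and 0.00553, adjusted p = 0.00926 and 0.024, r = 0.88 without 2 mice).

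Rgs5 with Cspg4 had r = 0.61 (rho = 0.53, exact permutation p = 0.0331 and 0.059, adjusted p = 0.07 and 0.114, r = 0.56 without 2 mice). Rgs5 with Pdgfrb had r = 0.76 (rho = 0.77, exact permutation p = 0.0244 and 0.0139, adjusted p = 0.0628 and 0.0392, r = 0.59 without 2 mice), which passed by rho alone. Cspg4 with Fap had r = -0.10 (rho = 0.08, exact permutation p = 0.72 and 0.812, adjusted p = 0.783 and 0.835, r = -0.002 without 2 mice). With library totals in place of TMM, 22 of the 36 pairs passed, 18 among the 7 genes that rose and 4 with Rgs5 or Cspg4, so both the count and the absence of pairs with Rgs5 or Cspg4 depend on the scaling. The low mice of 6, 8 and 10 weeks named above enter these correlations. Without single mice the number of pairs passing ran from 8 to 16, with 0 to 2 of them including Rgs5 or Cspg4.

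The genes with the most similar deviations from their age means, among all genes tested, are given as a description over 15 mice that share library and scaling. For Pdgfra these were Synpo2 (r = 0.97), Fcgr2b (0.96) and Itih5 (0.96), and for Pdgfrb Ahr (0.97), Acot9 (0.97) and Rsu1 (0.97). Dcn was nearest to Serpinf1 (0.95), Lox (0.94) and Medag (0.94), and Lum to Col3a1 (0.96), Olfml1 (0.96) and Fstl1 (0.96). The neighbours of Dcn and Lum include matrix genes: Lox encodes a collagen cross-linking enzyme and Col3a1 a fibrillar collagen. Acta2 was nearest to Trim16 (0.94), Tmed5 (0.92) and Chn2 (0.91), Cspg4 to Aaas (0.88), Gucy1b3 (0.87) and Hoxa4 (0.85), and Rgs5 to Cenpf (0.91), Timm8a1 (0.90) and Stk3 (0.90). Pdpn was nearest to Mfge8 (0.97), Aff3 (0.97) and Adamts13 (0.95), and Fap to Qprt (0.94) and Serpina1d (0.93), among others.

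Of 11 other small leucine-rich proteoglycans listed, 7 were tested and 6 were called higher at 12 than at 4 weeks by edgeR (adjusted p under 0.05), none lower, with a median log2 fold change of 2.47. For this and each list below, the share of all genes called higher in that comparison was 26.3%. Fibromodulin (Fmod) rose from 0.49 ± 0.21 to 10.2 ± 3.26 CPM (SD, n = 3; log2 fold change 4.34), and Prelp from 3.69 ± 1.52 to 38.6 ± 9.66 CPM (3.39). Osteoglycin (Ogn) rose from 1.25 ± 0.24 to 9.94 ± 5.42 CPM (3.0), and biglycan (Bgn), which had the highest mean of the list over all 15 mice, from 57.4 ± 19.4 to 319 ± 63.0 CPM (2.47). Asporin (Aspn) was the exception, with 11.7 ± 1.8 and 9.92 ± 2.13 CPM (log2 difference -0.24, edgeR adjusted p = 0.21, and 0.02 with library totals). Omd, Epyc, Kera and Optc had too few counts to be tested.

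All 16 other fibroblast genes were called higher at 12 than at 4 weeks, against 26.3% of all genes, with a median log2 fold change of 1.81. From 6 to 8 weeks 12 of the 16 met the study's threshold, against 8.4% of all genes as higher. The quasi-likelihood test called 0% of genes at that step after adjustment. Dermatopontin (Dpt), a matrix protein that binds decorin, rose from 8.55 ± 3.4 to 91.8 ± 16.9 CPM (log2 fold change 3.42). Igf1 rose from 3.74 ± 0.67 to 29.8 ± 7.01 CPM (2.99), Clec3b from 1.46 ± 0.25 to 10.9 ± 3.06 CPM (2.90) and Medag from 1.48 ± 0.54 to 8.54 ± 2.52 CPM (2.53). Thy1, which had the highest mean of the list over all 15 mice, though Mgp and Postn stood above it at 4, 6 and 8 weeks, rose from 17.0 ± 7.77 to 94.6 ± 12.2 CPM (2.47). Leukocytes also make part of this list: Thy1 is a T cell protein as well, and macrophages make Igf1.

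Of 12 other pericyte genes listed, 11 were tested, 4 were called higher at 12 than at 4 weeks, against 26.3% of all genes, none lower, and 7 were not called, with a median of 0.24. The 4 were desmin (Des), an intermediate filament of muscle and pericytes, from 8.16 ± 1.74 to 41.3 ± 6.47 CPM (log2 fold change 2.34), Kcnj8 (1.2), Vtn (1.2) and Abcc9 (1.08). Kcnj8 and Abcc9 encode the subunits of the potassium channel of mural cells. Notch3, a receptor that maintains mural cells and had the highest mean of the list over all 15 mice, measured 52.9 ± 2.56 and 62.2 ± 9.14 CPM (0.23, edgeR adjusted p = 0.148). Mcam measured 47.9 ± 1.06 and 48.8 ± 4.93 CPM (0.03, edgeR adjusted p = 0.797). The remaining 5, Higd1b, Ndufa4l2, Cox4i2, Heyl and Gja4, lay between -0.35 and 0.55. With library totals 7 of the 11 were called higher, Notch3, Mcam and Gja4 being added, while 6556 of all 16554 genes tested were called higher. Without the 2 libraries with intestinal transcripts 5 were, against 24% of all genes.

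Of the 10 smooth muscle contractile genes, 7 were called higher at 12 than at 4 weeks and none lower, with a median of 1.36. Synpo2 rose from 2.89 ± 1.13 to 23.6 ± 3.29 CPM (log2 fold change 3.02) and Tagln, an actin-binding protein of smooth muscle, from 10.2 ± 2.42 to 35.2 ± 9.57 CPM (1.80). Mylk, the kinase of the myosin light chain, had the highest mean of the list over all 15 mice, though Myh11 stood above it at 4 and 6 weeks, and rose from 17.1 ± 2.68 to 53.0 ± 3.73 CPM (1.63). Actg2, the enteric smooth muscle actin, stood at 0.55 ± 0.43 and 2.12 ± 0.6 CPM (1.95, edgeR adjusted p = 0.0134), and at an adjusted p of 0.0506 without the 2 libraries with intestinal transcripts. Cnn1, Lmod1 and Smtn were not called (log2 differences 1.5, 0.67 and 0.09). Calponin (Cnn1) ranged widely between mice and had 0.42 ± 0.41 CPM at 4 weeks.

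**Figure D4:**
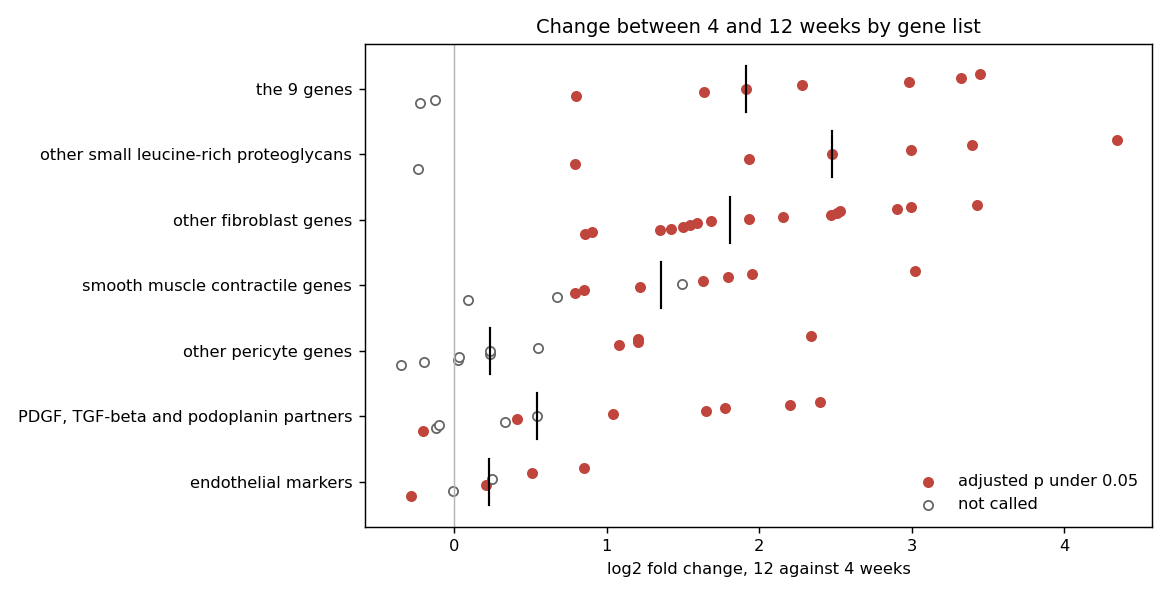
Log2 fold change at 12 against 4 weeks for each tested gene (1 point per gene) in the 9 genes and 6 further lists, with filled points for an adjusted p under 0.05 and a vertical bar at the list's median. The proteoglycan, fibroblast and smooth muscle lists lay mostly above 1, and the pericyte list spread from -0.35 to 2.34, with 4 of its 11 genes above 1 and a median of 0.24, while the endothelial median was 0.23.

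Ligands and receptors around the PDGF and TGF-beta pathways, which drive growth and matrix production in stromal cells, changed unequally. Of 11 listed, 6 were called higher at 12 than at 4 weeks and 1, Pdgfa, lower. Among the PDGF ligands, Pdgfc rose from 1.74 ± 0.54 to 5.95 ± 1.65 CPM (log2 fold change 1.77) and Pdgfb from 21.4 ± 0.79 to 28.6 ± 3.36 CPM (0.41). Pdgfa stood at 23.5 ± 0.95 and 20.4 ± 0.96 CPM (-0.21, edgeR adjusted p = 0.0285), a call lost with DESeq2's size factors (adjusted p = 0.106) and turned to 0.04 with library totals. Pdgfb was not called without the 2 libraries with intestinal transcripts (edgeR adjusted p = 0.123). Pdgfd was not called (0.33), but was with library totals (0.58, edgeR adjusted p = 0.0235). With library totals 7 of the 11 were called higher and 0 lower, while 6556 of all 16554 genes tested were called higher. Tgfb1 rose from 13 ± 3.45 to 60.0 ± 7.67 CPM (2.20), Tgfb3 from 4.64 ± 0.65 to 14.6 ± 3.11 CPM (1.65), and the receptors Tgfbr2 from 25.8 ± 7.56 to 136 ± 25.7 CPM (2.40) and Tgfbr3 from 19.0 ± 1.4 to 39.0 ± 6.13 CPM (1.04). Leukocytes also make Tgfb1 and Tgfbr2. Tgfbr1, which had the highest mean of the list over all 15 mice, though Tgfbr2 stood above it at 10 and 12 weeks, measured 97.2 ± 5.1 and 90.9 ± 4.59 CPM and was not called (-0.10), nor were Tgfb2 and Clec1b, the podoplanin receptor of platelets.

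Genes of lymphoid stroma, the fibroblast-like cells that organise lymph nodes and the infiltrates of inflamed organs, were all called higher at 12 than at 4 weeks (10 of 10, median log2 fold change 4.35). Cxcl13, the B cell chemokine, had the highest mean of the list over all 15 mice, though Ltbr stood above it at 4, 6 and 8 weeks, and rose from 0.69 ± 0.86 to 80.8 ± 17.6 CPM (6.84). Madcam1, a vascular addressin, rose from 0.08 ± 0.08 to 9.20 ± 6.39 CPM. It had 0 to 4 counts per mouse at 4 weeks, so its fitted log2 fold change of 6.82 is uncertain in size. Bst1 rose from 0.74 ± 0.88 to 21.4 ± 2.95 CPM (4.84). Cr2, which had at most 3 counts in every 4-week mouse, was at least 452-fold higher at 12 weeks against the mean of the 3-count floors. B cells make Cr2 as well. Ccl21a has near-identical copies in the mouse genome, so its value is uncertain. Ltbr was not called without the 2 libraries with intestinal transcripts (edgeR adjusted p = 0.121).

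Markers of other cells moved along with the members to unequal degrees. All 9 leukocyte markers in the table were called higher at 12 than at 4 weeks (median log2 fold change 4.74), and their summed level was 103, 39.6 and 24.2 CPM at 4 weeks, 28.8, 58.4 and 123 CPM at 6 weeks, and 824, 876 and 1071 CPM at 12 weeks. Ptprc (CD45) had the highest mean over all 15 mice, though Csf1r stood above it at 4 and 6 weeks, at 15.9 ± 16.3 and 351 ± 54.6 CPM. The 4-week mouse of replicate 1 was the highest of its age for these markers and also for Pdgfra, Pdgfrb, Dcn, Lum, Pdpn and Fap. At 6 weeks the mouse of replicate 3 was the highest for them and for Pdgfra, Pdgfrb, Dcn, Lum and Pdpn, but not for Acta2 and Fap. The mouse of replicate 1 was the lowest of that age for these markers, and that of replicate 2 for Pdgfra, Pdgfrb, Dcn, Lum, Acta2 and Fap. The part of leukocytes in the levels of the 9 genes was not tested.

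Of 6 endothelial markers, 3 were called higher (Pecam1 by 0.85, Cdh5 by 0.51 and Plvap by 0.21 on the log2 scale) and 1, Emcn, lower by a log2 difference of -0.28, with a median of 0.23. The lower call of Emcn was lost with DESeq2's size factors and with library totals. With library totals 5 of 6 were called higher, against 6556 of all 16554 genes tested. Without the 2 libraries with intestinal transcripts 2 of 6 were called higher, against 24% of all genes, and 0 lower, Plvap no longer being called (edgeR adjusted p = 0.121). Their summed level was 555, 544 and 531 CPM at 4 weeks and 648, 686 and 688 CPM at 12 weeks, with Plvap contributing most. Of 5 lymphatic endothelial markers, which matter for podoplanin, none was called higher and Prox1, which endocrine cells also make, was lower (-0.58). Lyve1 was called higher without those 2 libraries (0.99, edgeR adjusted p = 0.0107) and with library totals (0.92, edgeR adjusted p = 0.0243).

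Markers of mesothelium, another source of podoplanin, moved in both directions. Among 6 markers, Upk3b, Lrrn4, Wt1 and Upk1b had at most 2 counts in every 4-week mouse, and Upk3b, Lrrn4 and Wt1 reached 1.42 ± 0.95, 1.06 ± 0.91 and 1.48 ± 1.39 CPM at 12 weeks, at least 12.2-, 9.15- and 12.7-fold higher. Without the 12-week mouse of replicate 3, the highest for all 3, these bounds were 7.67-, 4.68- and 5.78-fold. Msln, which had the highest mean of the list at every age, fell from 149 ± 26.4 to 17.9 ± 4.58 CPM (-3.05), so its course ran against Upk3b, Lrrn4 and Wt1. Gpm6a was not called. Their part in the level of Pdpn was not tested.

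Tissue around the islet varied between mice. The 6 acinar markers summed to 1098, 9299 and 1238 CPM at 4 weeks and 11604, 7295 and 2798 CPM at 12 weeks, with Ctrb1 contributing most, and none was called. At 6 weeks they summed to 8090, 1927 and 4382 CPM, in the same order of mice as Acta2 and Fap. Their sums at 8 weeks were 5143, 2672 and 1441 CPM, in the opposite order to Pdgfrb, Lum, Pdpn and Fap. At 10 weeks they summed to 13278, 5248 and 1664 CPM, in the same order of mice as Pdgfra, Dcn, Pdgfrb, Acta2 and Pdpn. At 12 weeks they ran in the opposite order to Pdgfra, Dcn, Lum, Pdpn and Fap, and at 4 weeks the mouse highest in them was the highest for Acta2 alone among the 7 genes that rose. Their part in the levels of the 9 genes was not tested. Ductal markers were called higher for Krt19 (1.74) and Spp1 (0.83) and lower for Krt7 (-0.76). Adipocyte markers summed to at most 2.85 CPM in any mouse, with all 4 at 0 counts in the 4-week mice and Cfd contributing most. Endocrine markers, led by Ins2, were called lower for 5 of 6 (median -0.91), Sst not being called (edgeR adjusted p = 0.0726). Without the 2 libraries with intestinal transcripts Sst was called lower too (-0.56, edgeR adjusted p = 0.0303), making 6 of 6. Among Schwann cell markers, Ngfr, which some stromal cells also make, rose from 6.82 ± 2.58 to 35.2 ± 7.66 CPM (2.37), S100b from 0.80 ± 0.17 to 1.51 ± 0.19 CPM (0.91) and Sox10 from 3.64 ± 0.59 to 5.53 ± 0.48 CPM (0.61), the last not being called without those 2 libraries (edgeR adjusted p = 0.0637). Gfap was not called (0.71), but was with library totals (edgeR adjusted p = 0.0487). Their part in the levels of the 9 genes was not tested.

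**Figure D5:**
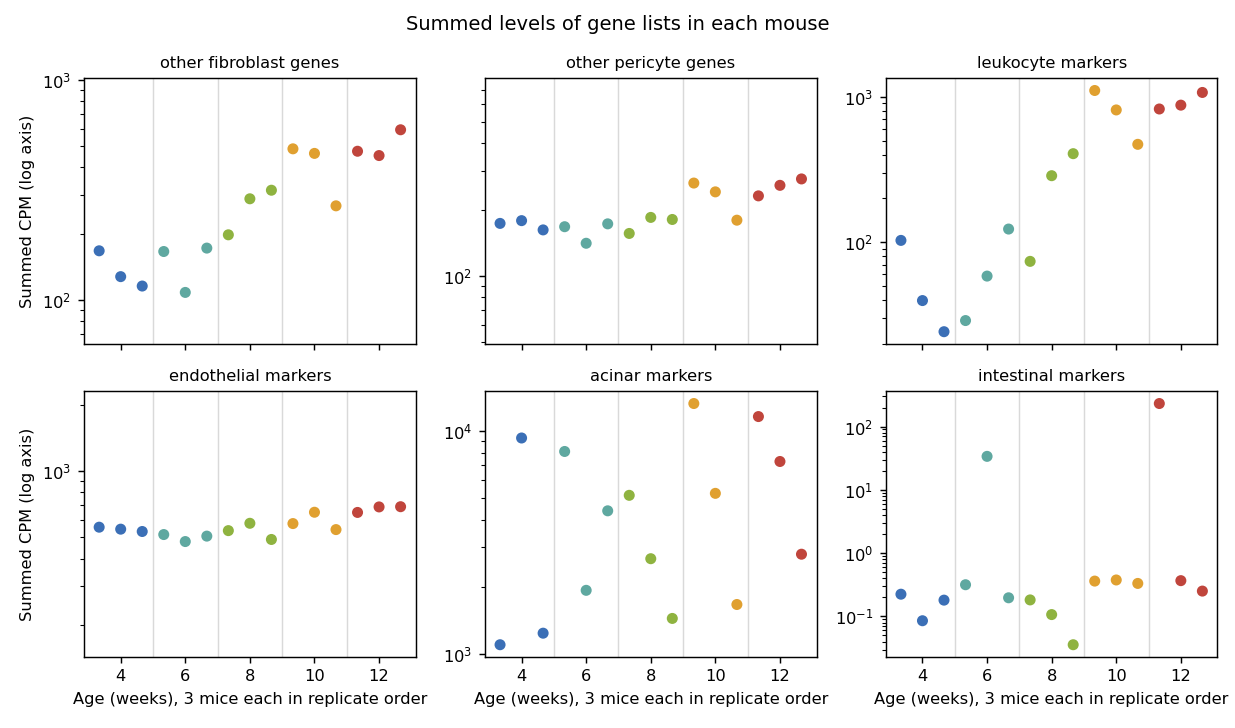
Summed CPM (log axis) of 6 gene lists in each of 15 mice, ordered by age in weeks and replicate. Fibroblast and leukocyte sums were both higher at the older ages and shared their low mice at 8 and 10 weeks, but not at 6 and 12 weeks. Endothelial sums lay between 478 and 688 CPM, acinar sums varied within every age, and intestinal transcripts stood out in 2 mice.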

How the data were processed

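Per the study's methods, libraries of polyadenylated RNA were sequenced from both ends, then trimmed, aligned and counted in CLC Genomics Workbench at its default settings. The build in the labels is mm10. Whether counting used strand is not given in the sources used here. The deposited counts are whole reads per gene, not normalized. The authors' TPM and RPKM, deposited beside them, were used to compare levels between genes. A further 15 per-sample columns (CPM of the authors) were not used.

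Genes were kept by filterByExpr (16554 of 48709). TMM scaling, glmQLFit and glmQLFTest were those of edgeR 4.0.16 in R 4.3.3 on all 15 mice, 1 mean per age. Adjustment was Benjamini-Hochberg over all genes tested. Log2 CPM used a prior count of 2. Permutation tests were exact and two-sided (scipy 1.17.1). DESeq2 1.42.0 was an alternative, with other scalings, no filter, 2 ages alone, the edgeR exact test, each mouse left out and the replicate block. The pipeline was tested on simulated data. No 2 libraries held identical counts, and replicates differed beyond read sampling (chi-square per degree of freedom 15.9 to 127, genes with at least 20 counts in the pair). Named genes were the 9 members, up to 4 per list with the largest change among those called at 12 against 4 weeks, the most abundant of each list, the 3 nearest per member, and overlapping genes. Other names were added after the values were seen. A few genes that the rule covers are not reported here, so the Schwann cell list is given in part, without its counts and sums. Members and lists were chosen with earlier results of these data known. Intervals are for the difference between age means and use an estimate of the spread shared by all 15 mice, so they do not describe the spread within each age. Sequences are from RefSeq (GRCm38.p6).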

Additional observations from a re-analysis of the deposited data

How the results depend on the processing

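The call of 7 of 9 genes at 12 against 4 weeks held under all 23 alternatives. In those fits 3627 (without the 4-week mouse of replicate 3) to 6556 genes (library totals) were called higher. With single mice left out the joint test called 7 to 8 of the 9, the fit with 8 calling 9822 of 16868 genes. Single steps were less firm. At 8 against 6 weeks the number of the 9 called was 0, but 3 with the edgeR exact test and 3 with DESeq2, and 0 to 4 with single mice left out. At 10 against 8 weeks it was 0, but 2 with DESeq2, which called 2334 of 16554 genes higher. With single mice left out it was 0 to 3, the fit with 3 calling 2704 of 16868 genes higher. At the study's threshold, 10 against 8 weeks gave 2 of the 9, but 1 with the 2 ages alone and 0 to 5 with single mice left out. In the fit with 5, 2396 of 16868 genes met it as higher. The same threshold gave 4 to 6 at 8 against 6 weeks and 0 to 1 at 6 against 4 weeks.

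Over all genes, calls at 6 against 4 weeks numbered 15, but 176 with the exact test, 141 with 2 ages alone, 249 with DESeq2, 5 with the replicate block, 0 without the 2 libraries with intestinal transcripts (chosen after seeing the data) and 0 to 69 with single mice left out. Calls at 8 against 6 weeks numbered 0, but 306 with the exact test, 543 with DESeq2 and 0 to 797 with single mice left out. At 10 against 8 weeks they numbered 2776, but 4096 with DESeq2, 0 with 2 ages alone, 0 with the replicate block, 1144 without the 2 libraries and 0 to 5612 with single mice left out. At 12 against 10 weeks they numbered 0, but 8 with the exact test and 12 with DESeq2. Correlated pairs numbered 13, but 22 with library totals, 4 of them with Rgs5 or Cspg4, and 8 to 16 with single mice left out. The cause of these differences was not tested.

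Of 1035 alternative values of the members' fold changes, 13 turned sign, none of them a called value. With library totals these were Cspg4 (0.027) and Rgs5 (0.12) at 12 against 4 weeks and Rgs5 at 10 against 8 weeks (0.047). Without the 2 libraries it was Pdgfrb at 6 against 4 weeks (0.036). With single mice left out, the values at 6 against 4 weeks ran from -0.13 to 1.02 for Pdgfra, from -0.14 to 0.0354 for Pdgfrb and from -0.060 to 0.35 for Lum. They ran from -0.027 to 0.15 for Cspg4 and from -0.12 to 0.044 for Rgs5 at 10 against 8 weeks, and from -0.015 to 0.16 for Rgs5 at 12 against 10 weeks. Another 17 passed the test where the main value did not.

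The replicate numbers were not taken to pair the mice: of 30 same-numbered pairs of ages, 7 had deviations correlated above 0.1 (mean r = -0.08, from -0.64 to 0.51). No reference for these values was computed, and whether some same-numbered mice shared a batch was not tested. With the replicate block 7 members were called at 12 against 4 weeks, where 4111 of 16554 genes were called higher. At the single steps 0 members were called, where the fit called 5 genes of all tested at 6 against 4 weeks and 0 at each later step. The lowest count of a member in any mouse was 17.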
